A study of Mus musculus with 17 samples.

Results

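The genes described here are Myc and Mycn of the MYC family, the D cyclin genes Ccnd1, Ccnd2 and Ccnd3, and the cyclin-dependent kinase (CDK) inhibitor genes Cdkn1a (p21) and Cdkn1b (p27). They were chosen by name, and all loops with an anchor within 5 kb of one of their annotated start sites were taken. These are 7 of the 19244 protein-coding genes with an anchor in that window, and they hold 541 of the 1211657 loops of the series. A loop here is a pair of anchors, that is, of genomic segments joined by at least 1 sequenced read pair, and its count is the number of such read pairs.

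The data come from H3K27ac HiChIP, which captures contacts between DNA segments of which at least one carries acetylated lysine 27 of histone H3, a mark of active promoters and enhancers. All cells derive from the mouse embryonic stem cell line R1, grown as embryoid bodies and treated with 0.5 µM retinoic acid for 4 days, and no genotype or other treatment separates the groups. The 12 bulk libraries were made from the whole embryoid bodies, and the 5 double positive libraries (cluster2 in the labels) from cells sorted by flow cytometry for both surface proteins EpCAM and CD38. The bulk libraries therefore hold double positive cells too. The methods speak of 5 separate sorts but tie no library to one, so the p-values measure only the spread between these libraries, which may be technical.

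MYC and MYCN are transcription factors that pair with MAX and bind the E-box CACGTG, and MYCN is the family member best known from the neural progenitors of the embryo. D cyclins activate CDK4 and CDK6, which phosphorylate the retinoblastoma protein and so release E2F factors at the entry into S phase. The p21 and p27 proteins bind cyclin-CDK complexes and hold cells in G1, with p21 known as a target of p53 and p27 as a protein that rises when cells leave the cycle.

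Libraries held 65148 to 241068 read pairs in bulk and 50508 to 118179 in double positive samples. Counts per 1000000 read pairs (CPM) below are scaled by TMM, whose factors lay between 0.572 and 0.80 in bulk and between 2.32 and 2.51 in double positive libraries, so the scaling matters for every difference. A log2 difference is always double positive minus bulk. With TMM the median difference over all 14115 genes tested was -0.52, with library size alone it was 1.21, and on shared anchors, those that loops of both groups use, it was 0.42. Marker genes of endoderm summed to 164 to 497 CPM in bulk and 566 to 727 CPM in double positive libraries. Of the 8 tested, 2 were higher (Gata4 and Foxa2) and 1 lower (Dab2, -1.48), beside 20.6% and 42.8% of all genes tested. Gata6 (0.02), Sox7 (0.63) and Sox17 (-0.57) did not pass the test. Epcam and Cd38 themselves, whose proteins defined the sort, differed by 1.05 (adjusted p = 0.107) and 0.65 (adjusted p = 0.195) without passing the test. On shared anchors 4 of the 8 endoderm markers were higher and 0 lower, among them Cd38 (1.86, adjusted p = 0.00456) but not Epcam (0.35, adjusted p = 0.654). Neural markers summed to 810 to 1597 CPM in bulk and 78.6 to 140 CPM in double positive libraries. Of the 7 tested, 6 were lower, beside 42.8% of all genes, and Sox3 had no read pair. In bulk samples, fewer cells of a type and less signal per cell cannot be told apart.

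Sequences before the start sites of the CDK inhibitor genes and Ccnd3 are given first. Their part in the differences was not tested. Promoter sequences were available for 4 of the 7 genes (Mycn, Ccnd3, Cdkn1a and Cdkn1b) in the RefSeq table of GRCm38.p6, and all of them matched the mm9 genome of the files exactly. The 250 bases before the start site are printed 5′ to 3′ in gene direction, except for Mycn, whose window enters an annotated exon. Capitals mark matches on either strand to the GC box GGGCGG, the CCAAT box, the TATA box TATAAA, the E-box CACGTG and a spaced pair, 2 copies of CATG with 6 bases between them as in a p53 site, which was added after the Cdkn1a sequence had been read. Of 32851 RefSeq promoters of this length, 32.7% hold GGGCGG, 33.8% a CCAAT box, 12.4% the TATA box, 6.02% CACGTG and 0.49% the spaced pair. Both annotated starts of Ccnd3 and the first 2 of the 3 of Cdkn1a are shown, because each lies in an anchor of the gene's loops. Ccnd3 loops also leave from anchors that hold no start, such as chr17:47637787-47640104 (25 bulk and 79 double positive read pairs). The first Ccnd3 window lies at chr17:47641750-47641999 and the second at chr17:47730166-47730415, both on the plus strand of mm9.
Ccnd3 first start: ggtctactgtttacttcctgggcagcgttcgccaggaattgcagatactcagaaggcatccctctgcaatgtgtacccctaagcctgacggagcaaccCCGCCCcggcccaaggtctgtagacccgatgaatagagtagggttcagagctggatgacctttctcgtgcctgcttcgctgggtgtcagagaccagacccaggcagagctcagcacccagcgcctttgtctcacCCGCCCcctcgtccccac
Ccnd3 second start: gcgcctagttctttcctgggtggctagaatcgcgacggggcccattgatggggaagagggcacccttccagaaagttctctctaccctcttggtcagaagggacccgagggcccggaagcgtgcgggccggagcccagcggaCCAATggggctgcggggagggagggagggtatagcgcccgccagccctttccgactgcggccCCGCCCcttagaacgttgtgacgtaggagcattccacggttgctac
The Cdkn1a windows lie at chr17:29227674-29227923 and chr17:29230464-29230713, and the Cdkn1b window at chr6:134870169-134870418, all on the plus strand. The Gpr19 window, on the minus strand at chr6:134847944-134848193, is the partner of a Cdkn1b loop described below.
Cdkn1a first start: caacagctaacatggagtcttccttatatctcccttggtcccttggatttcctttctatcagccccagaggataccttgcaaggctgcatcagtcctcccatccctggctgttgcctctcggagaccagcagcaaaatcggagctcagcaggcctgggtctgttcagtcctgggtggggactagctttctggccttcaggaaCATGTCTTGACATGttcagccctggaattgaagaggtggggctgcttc
Cdkn1a second start: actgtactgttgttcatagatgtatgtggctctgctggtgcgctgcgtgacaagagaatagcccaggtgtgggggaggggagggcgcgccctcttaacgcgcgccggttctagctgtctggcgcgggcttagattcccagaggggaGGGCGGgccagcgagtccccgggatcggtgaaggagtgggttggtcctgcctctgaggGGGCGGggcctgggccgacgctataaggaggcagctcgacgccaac
Cdkn1b: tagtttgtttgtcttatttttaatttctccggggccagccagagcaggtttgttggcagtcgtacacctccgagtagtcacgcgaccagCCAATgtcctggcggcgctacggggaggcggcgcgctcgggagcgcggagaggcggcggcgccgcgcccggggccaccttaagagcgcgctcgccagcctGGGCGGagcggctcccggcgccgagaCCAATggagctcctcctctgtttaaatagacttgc
Gpr19: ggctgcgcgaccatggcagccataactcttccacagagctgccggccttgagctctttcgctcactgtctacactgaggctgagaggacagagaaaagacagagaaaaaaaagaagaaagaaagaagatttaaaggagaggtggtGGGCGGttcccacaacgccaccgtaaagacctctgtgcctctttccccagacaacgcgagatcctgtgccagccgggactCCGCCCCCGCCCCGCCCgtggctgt
The first Cdkn1a window held the spaced pair and no GC box, while the second held 2 GC boxes. The Cdkn1b window held 1 GC box and 2 CCAAT boxes and was 64.4% G or C. None of the windows shown held CACGTG or TATAAA in these letters.

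The question of the comparison is how the contacts of these promoters in the cells sorted for EpCAM and CD38 differ from those of the whole culture. With TMM, the promoters of both MYC genes and of Ccnd1 and Ccnd2 had fewer read pairs in double positive libraries, and those of Ccnd3, Cdkn1a and Cdkn1b had more. The 3 genes that were higher and the 4 that were lower at an adjusted p under 0.05 (edgeR quasi-likelihood test, Benjamini-Hochberg over all genes tested) stand beside 20.6% and 42.8% of all genes tested. The median over the 7 genes was -1.02. All double positive libraries lay below all bulk libraries for 3 of the 7 genes and above them for 1, against 14.9% and 7.22% of all genes.

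**Figure D1:**
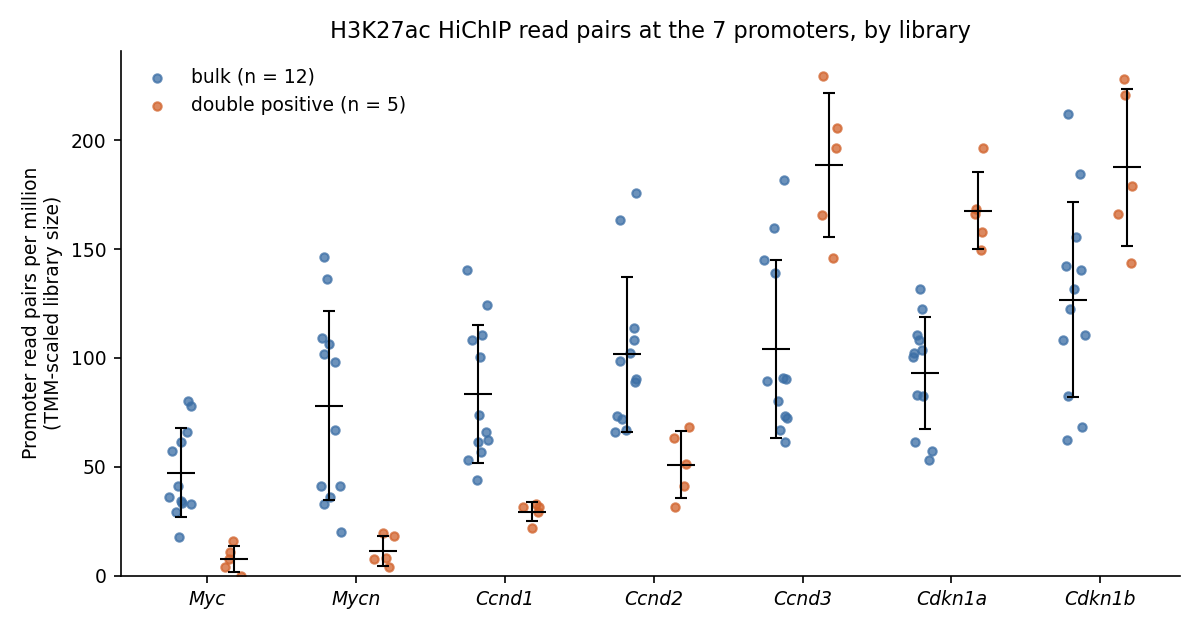
CPM at each promoter in every library (points, vertical axis; 12 bulk libraries in blue, 5 double positive libraries in orange), with mean and SD as black bars. The groups separate for Myc, Mycn, Ccnd1 and Cdkn1a and overlap for Ccnd2, Ccnd3 and Cdkn1b on the TMM scale used here, and with library size alone they separate instead for the last 2 of these and for Cdkn1a, all with double positive libraries above.

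Myc (chr15:61816946-61821929, plus strand) was touched by 1 anchor, which spans chr15:61814354-61820184 and holds its start sites. The bulk libraries held 1 to 15 read pairs there (median 3.5, 58 in all), or 17.8 to 80.4 CPM with a median of 38.7 CPM. The double positive libraries held 3, 0, 1, 2 and 1 read pairs. All of the latter lay below all bulk libraries, at 7.74 ± 6.08 CPM (SD, n = 5) against 47.3 ± 20.5 CPM (SD, n = 12). The log2 difference was -2.61 (SE 0.51, adjusted p = 3.68e-05, edgeR), a 6.09-fold lower value, or -2.09 relative to the median of all genes. Of the 58 bulk read pairs, 56 led to a partner anchor in no double positive loop, where double positive libraries give no count. On shared anchors Myc had 2 bulk and 7 double positive read pairs, too few to be tested, so that the lower value rests on anchors used in bulk alone.

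Mycn (chr12:12942902-12948720, minus strand) showed the same order of size. Its 95 bulk read pairs were spread over all 12 libraries, with 20.1 CPM in the lowest, 82.5 CPM at the median and 146 CPM in the highest. The double positive libraries had 5, 4, 1, 1 and 1 read pairs, all below bulk once scaled (78.1 ± 43.5 CPM in bulk, n = 12, and 11.5 ± 6.91 CPM in double positive libraries, n = 5, SD). The log2 difference was -2.64 (SE 0.46, adjusted p = 7.74e-06, edgeR), and on shared anchors it was -2.17 (adjusted p = 0.000137). The bulk libraries fell into 2 ranges for Mycn, with replicates 1 to 6 at 98.1 to 146 CPM and replicates 7 to 12 at 20.1 to 67.0 CPM, a division that the labels do not explain. Both ranges lay above the highest double positive library (19.5 CPM).

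With library size alone, Myc and Mycn kept a lower value in double positive libraries (-0.95 for each) but no longer passed the test (adjusted p = 0.119 and 0.0801, edgeR). On that scale their groups overlapped. Both MYC factors together took 11.9% to 29.5% of the read pairs of the 7 genes in bulk libraries and 1.37% to 5.06% in double positive libraries. This share uses no scaling between libraries but counts all anchors, and the groups did not overlap.

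Of the D cyclins, Ccnd1 (chr7:152115836-152125774, minus strand) was lower and Ccnd3 higher, while Ccnd2 depended on which anchors were counted. Cyclin D1 is the mitogen-induced member of the family and cyclin D2 and D3 are its tissue-restricted relatives. Ccnd1 had 43.9 to 140 CPM in bulk libraries (median 69.8 CPM, 99 read pairs) and 6, 6, 4, 4 and 8 read pairs in the double positive libraries, or 29.4 ± 4.39 CPM (SD, n = 5) against 83.4 ± 31.7 CPM (SD, n = 12). No double positive library reached the lowest bulk library. The log2 difference was -1.54 (SE 0.33, adjusted p = 0.000137, edgeR) and -1.26 on shared anchors (adjusted p = 0.0103). With library size alone its sign turned (0.21, adjusted p = 0.584), which is still below the median of all genes on that scale.

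Ccnd2 (chr6:127075797-127101066, minus strand) had 121 bulk read pairs, with 66.1 CPM in the lowest library, 94.5 CPM at the median and 176 CPM in the highest. The double positive libraries held 14, 14, 4, 8 and 10 read pairs. Their mean was 51.0 ± 15.2 CPM (SD, n = 5) against 102 ± 35.7 CPM in bulk (SD, n = 12), and the highest of them overlapped the lowest bulk libraries. The log2 difference was -1.02 (SE 0.29, adjusted p = 0.00277, edgeR), close to the median of all genes (-0.50 relative to it), and with libraries thinned to the smallest it was -0.58 and did not pass the test (adjusted p = 0.198). The anchor that holds the start site, chr6:127099900-127103471, had 48 read pairs in bulk and 50 in double positive libraries. The neighbouring anchors on either side had 57 and 16 bulk read pairs and were in no double positive loop. On shared anchors the difference was therefore computed from the start site anchor alone, and there only from its loops to shared partners. These held 14.0% of the bulk read pairs of Ccnd2. The difference was then 0.45 (adjusted p = 0.438, edgeR), and with library size alone it was 0.73 (adjusted p = 0.0332), both of opposite sign.

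Ccnd3 (chr17:47642000-47736632, plus strand) had 61.5 to 182 CPM in bulk libraries (median 89.6 CPM, 114 read pairs). The double positive libraries held 40, 47, 25, 21 and 50 read pairs. All 5 lay above the bulk median and 3 above every bulk library, with 189 ± 33.1 CPM (SD, n = 5) against 104 ± 40.8 CPM (SD, n = 12). The log2 difference was 0.87 (SE 0.24, adjusted p = 0.00178, edgeR), 1.34 on shared anchors (adjusted p = 8.16e-05) and 2.64 with library size alone. The window of its first start site also holds a start of Taf8, a subunit gene of the general transcription factor TFIID, and the anchors there (chr17:47637787-47640104 and chr17:47641258-47643074) cannot be assigned to either gene. The anchor at the second start, chr17:47729541-47731948, has no other start site in its window and held 31 bulk and 63 double positive read pairs. Beside it, chr17:47733424-47736504 held 27 bulk read pairs, and near the first start chr17:47644511-47646083 held 14. Both of these also have no other start site in the window and were in no double positive loop. The anchors free of Taf8 were not tested on their own.

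Both CDK inhibitors were higher, Cdkn1a in all comparisons of scale and Cdkn1b only in some. Cdkn1a (chr17:29227924-29237667, plus strand) had 53.3 to 132 CPM in bulk libraries (median 101.4 CPM, 104 read pairs) and 41, 34, 25, 20 and 41 read pairs in the double positive libraries. Every double positive library exceeded every bulk library, at 168 ± 17.8 CPM (SD, n = 5) against 93.0 ± 25.6 CPM (SD, n = 12). The log2 difference was 0.84 (SE 0.23, adjusted p = 0.00178, edgeR), a 1.79-fold higher value. It was 0.83 on shared anchors (adjusted p = 0.0160) and 2.61 with library size alone. Of its read pairs, 96 in bulk and 152 in double positive libraries left from the anchor chr17:29229906-29234223, which holds the second start. The anchor of the first start had 8 and 9. Counting only loops of at least 20 kb, which leaves out the loop at 15.3 kb described below, the difference was 0.49 and did not pass the test (adjusted p = 0.0949).

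Cdkn1b (chr6:134870419-134875531, plus strand) was the most contacted of the 7 promoters in bulk, all through the anchor chr6:134866760-134872221. The bulk libraries had 62.1 to 212 CPM (median 127 CPM, 146 read pairs), and the double positive libraries 49, 34, 29, 28 and 35 read pairs. All 5 lay above the bulk median but only 2 above every bulk library (187.5 ± 36.03 CPM, n = 5, against 127 ± 44.8 CPM, n = 12, SD). The log2 difference of 0.54 (SE 0.24) had an adjusted p of 0.0456 (edgeR). The call was lost when any of 12 of the 17 libraries was left out (largest adjusted p = 0.119), and on shared anchors the sign turned (-0.17, adjusted p = 0.623). With library size alone the difference was 2.32.

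On shared anchors 2 of the 6 members that could be tested were higher (Ccnd3 and Cdkn1a) and 2 lower (Mycn and Ccnd1), beside 25.7% and 10% of all genes. The members' median there was 0.14. Bulk loops use many anchors that no double positive loop uses. Between 3.45% (Myc) and 65.1% (Cdkn1b) of a member's bulk read pairs lay on loops with both anchors shared.

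**Figure D2:**
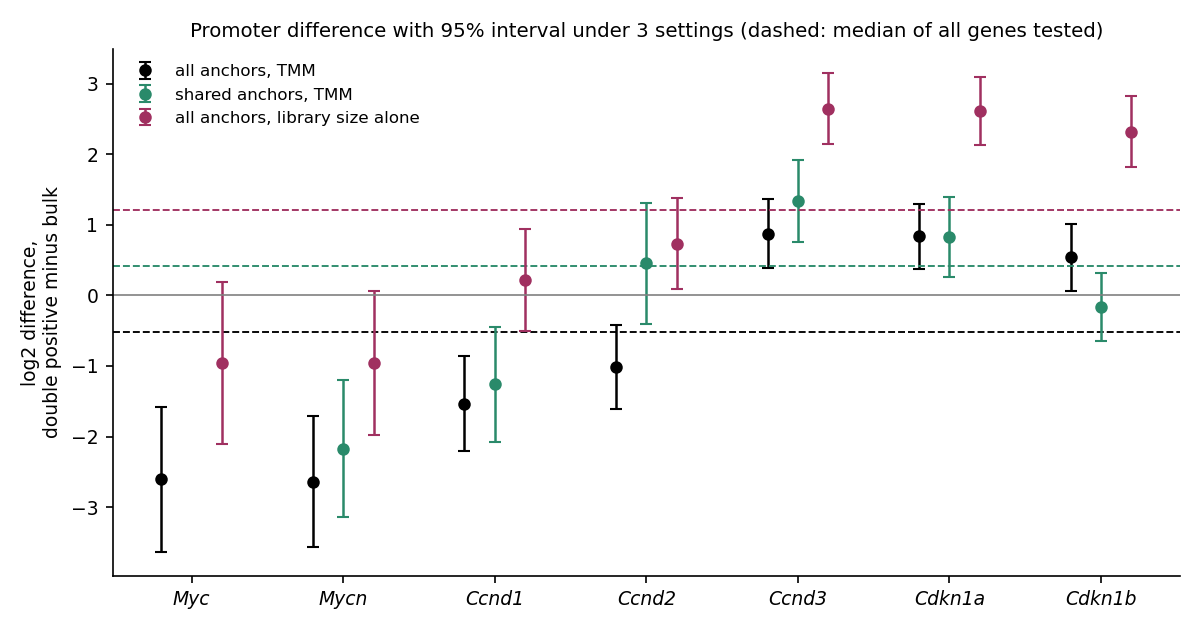
The log2 difference in promoter read pairs (double positive minus bulk, vertical axis) of each gene with its 95% interval, under TMM on all anchors, TMM on shared anchors and library size alone, with the median of all genes tested under each as a dashed line. Mycn and Ccnd1 lie below and Ccnd3 and Cdkn1a above the dashed line of each setting, Ccnd1 changes sign with library size alone, Ccnd2 in both other settings and Cdkn1b on shared anchors.

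Compared within a library, the division of the 7 genes' read pairs did not depend on scaling. The 2 CDK inhibitors together took 23.9% to 48.3% of them in bulk libraries (34.8% ± 7.06, SD, n = 12) and 48.9% to 60.7% in double positive libraries (55.2% ± 4.64, SD, n = 5), with no overlap. The D cyclins together took 45.4% ± 9.07 in bulk and 41.8% ± 5.17 in double positive libraries, which overlapped. Within the D cyclins, Ccnd3 went from 16.5% ± 6.61 to 29.3% ± 4.49 of the 7 genes' read pairs, whereas Ccnd1 went from 13.1% ± 4.65 to 4.57% ± 0.619 and Ccnd2 from 15.8% ± 4.46 to 7.96% ± 2.29, each of the latter pair without overlap between groups. These shares rest on 28 to 122 read pairs a library in bulk and 84 to 158 in double positive libraries. They count all anchors, also those used in bulk alone. Of the bulk read pairs of Cdkn1a and Cdkn1b, 41.3% and 65.1% lay on shared anchors. For the other members this was 3.45% (Myc) to 33.3% (Ccnd1). The bulk shares of the CDK inhibitors thus depend on which anchors are counted, and the division on shared anchors alone was not computed.

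**Figure D3:**
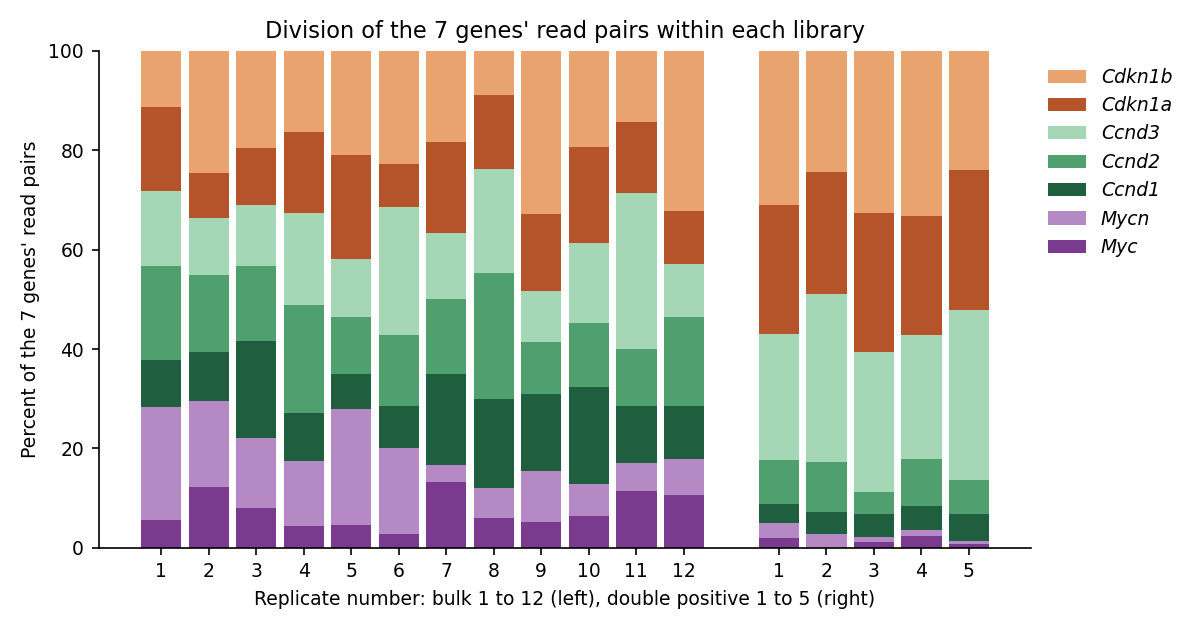
Percent of the 7 genes' read pairs, over all anchors, that each gene took in every library (stacked bars; 12 bulk libraries on the left, 5 double positive libraries on the right). The MYC genes at the foot of the bars take 11.9% to 29.5% in bulk and 1.37% to 5.06% in double positive libraries, and the CDK inhibitors at the top take 48.9% or more in every double positive library.

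Levels of different genes were compared per kb of their promoter anchors, counting the width of all anchors, also of those used in bulk alone. In bulk, the order was Cdkn1b (23.2 ± 8.20 CPM per kb), Mycn (15.9 ± 8.84), Cdkn1a (13.3 ± 3.68), Ccnd2 (10.3 ± 3.62), Ccnd3 (9.31 ± 3.65), Ccnd1 (8.53 ± 3.24) and Myc (8.12 ± 3.51; SD, n = 12 for each). No neighbours in this order differed by more than their spread. In double positive libraries the order was Cdkn1b (34.3 ± 6.60 CPM per kb), Cdkn1a (24.0 ± 2.55), Ccnd3 (16.8 ± 2.95), Ccnd2 (5.17 ± 1.54), Ccnd1 (3.01 ± 0.449), Mycn (2.35 ± 1.41) and Myc (1.33 ± 1.04; SD, n = 5 for each). Here the neighbours from Cdkn1b down to Ccnd1 stood apart by more than their SD, and the last 3 did not. Mycn, Ccnd1, Ccnd2 and Ccnd3 have promoter anchors in no double positive loop, and Myc, Cdkn1a and Cdkn1b have none. For Ccnd3 such anchors of 1573 and 3081 bp are part of a width of 11.197 kb. The double positive values of these 4 genes are thus lowered by width that can hold no count. The order on shared anchors alone was not computed.

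The contacts of the MYC genes were long and scattered in bulk. Of Myc's 58 bulk read pairs, 84.5% joined anchors more than 100 kb apart (95% exact Clopper-Pearson interval 72.6% to 92.7%, counting error only), with a median span of 749.8 kb. They fell on 50 loops, 44 of which had 1 read pair, and 42 of the 58 pointed downstream, where the long noncoding RNA gene Pvt1 lies. Partners overlapping Pvt1 took 13 bulk and 6 double positive read pairs. The bulk loop with the most read pairs ran 133.2 kb downstream to chr15:61949438-61951594 inside Pvt1 (3 read pairs, each from another library). Of the 7 double positive read pairs, 6 lay on 1 loop, 52.8 kb downstream to chr15:61868622-61871550 at the start of Pvt1, with 3, 0, 0, 2 and 1 read pairs in the libraries against 1 in all of bulk. No Myc loop had enough read pairs for a test.

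Mycn sent 77 of its 95 bulk read pairs downstream and 91.6% of them over 100 kb. Its strongest bulk loop reached 521.8 kb downstream to chr12:12425774-12428803, with 10 read pairs from 6 bulk libraries and 1 in double positive libraries. A further 7 bulk read pairs reached 618.4 kb into Fam49a, a regulator of the actin cytoskeleton, and none did so in double positive libraries. The strongest double positive loop ran 130.4 kb downstream to chr12:12816213-12821076, with 2, 1, 0, 1 and 0 read pairs against 6 in bulk. None of these partners lies within 5 kb of a protein-coding start site.

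Ccnd1 pointed mainly upstream in bulk, with 58 of 99 read pairs on that side, and less so in double positive libraries, with 7 of 28. Of the 99 bulk read pairs, 61 led to a partner anchor in no double positive loop, where double positive libraries give no count. The change of side was not tested. The strongest bulk loop of Ccnd1 ran 306.2 kb upstream to chr7:152428030-152429999 (9 read pairs from 6 libraries), an anchor in no double positive loop. At 270.4 kb upstream, the anchor chr7:152391261-152395011 was reached by both groups, with 6 bulk and 4 double positive read pairs on this loop. The strongest double positive loop was 5.8 kb long and joined a pair of anchors within the Ccnd1 window itself (0, 2, 0, 2 and 1 read pairs against 4 in bulk).

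Ccnd2 had the most one-sided contacts of the D cyclins. Upstream partners took 107 of 121 bulk and 42 of 50 double positive read pairs. The anchor chr6:127279084-127282111, in intergenic sequence upstream, received 10 bulk and 15 double positive read pairs. In double positive libraries all 15 came from the start site anchor, 178.9 kb away, with 3, 5, 0, 2 and 5 read pairs in the libraries. In bulk only 3 did so, and 4 came from the neighbouring anchor 183.5 kb away, which is the bulk loop with the most read pairs.

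Ccnd3 had a median span of 90.4 kb in bulk, against 222.8 kb for Ccnd1 and 202.2 kb for Ccnd2, and of 109.3 kb in double positive libraries, where 57.9% of its read pairs and 57.1% of those of Ccnd1 lay over 100 kb. These spans were not tested against each other. The anchor chr17:47746869-47749572 at Bysl and Med20, genes for ribosome assembly and for a Mediator subunit, received 9 bulk and 27 double positive read pairs over 5 loops, and 1 of these loops, of 13.3 kb, was the strongest in bulk with 6 read pairs. The strongest double positive loop was 9.7 kb long, from the anchor shared with Taf8 to chr17:47647205-47650181 inside Ccnd3, with 1, 5, 1, 1 and 5 read pairs against 0 in bulk. Over the promoter anchors together this partner received 31 double positive and 5 bulk read pairs. A partner at Frs3, Prickle4 and Tomm6 received 19 and 5, and one at Mrps10 13 and 3.

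**Figure D4:**
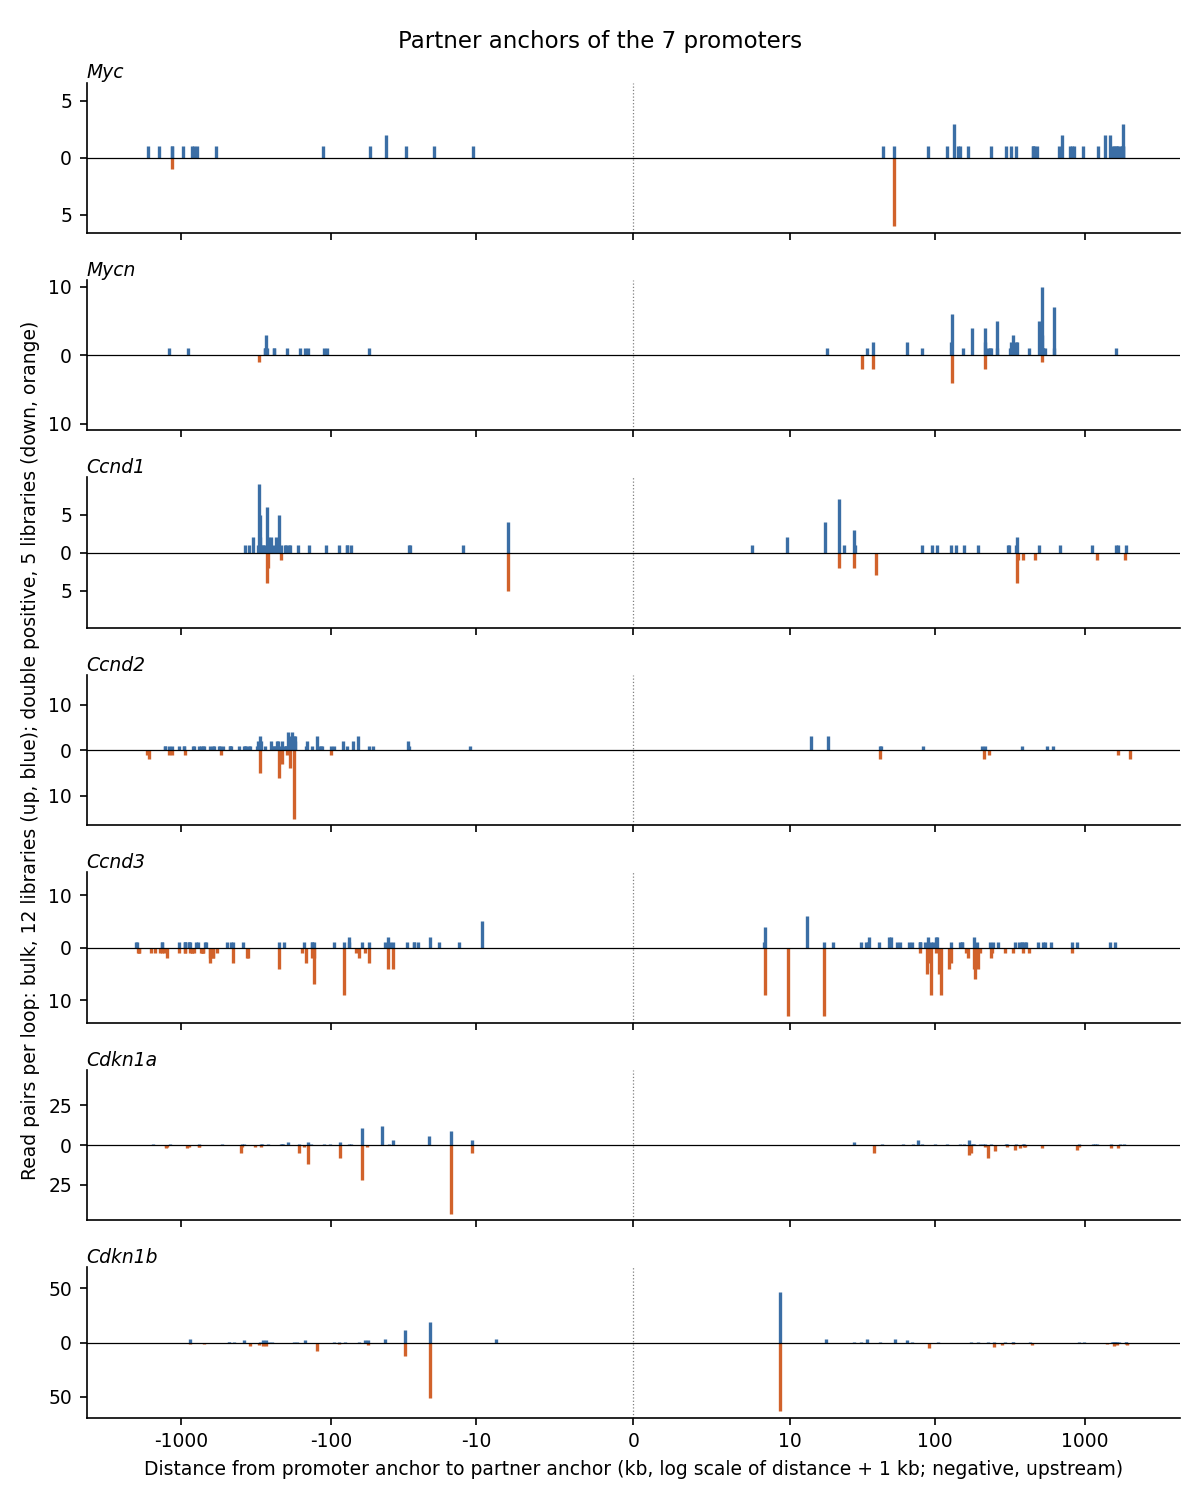
Read pairs of every loop of the 7 promoters against the distance to its partner anchor (horizontal axis, kb on a log scale, negative upstream in gene direction), summed over the 12 bulk libraries (blue, upward) and the 5 double positive libraries (orange, downward). Myc's bulk contacts scatter beyond 100 kb, while the tallest double positive bar of Cdkn1a stands 15.3 kb upstream (43 read pairs) and the tallest bars of Cdkn1b stand 8.5 kb downstream in both groups (47 and 63 read pairs).

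Of the 541 loops, 5 had enough read pairs to be tested, and all of them belong to the CDK inhibitors. With TMM on the loop counts, 2 were higher and none lower, beside 38.1% higher and 22.4% lower among all 5369 loops tested, whose median was 0.78. At an unadjusted p under 0.05 the counts with edgeR were 2 higher and 0 lower, and DESeq2 called 0 lower. The partner windows of a called Cdkn1a loop and of the Cdkn1b loop with the most read pairs are shown here as the 300 bases at the centre of the anchor on the plus strand of mm9, with capitals for AGGTCA (a nuclear receptor motif, searched on both strands together with the GATA-factor motif AGATAA and with CACGTG). The Cdkn1a partner window is chr17:29216602-29216901 and the Cdkn1b one chr6:134877834-134878133, and neither overlaps an annotated exon.
Cdkn1a partner: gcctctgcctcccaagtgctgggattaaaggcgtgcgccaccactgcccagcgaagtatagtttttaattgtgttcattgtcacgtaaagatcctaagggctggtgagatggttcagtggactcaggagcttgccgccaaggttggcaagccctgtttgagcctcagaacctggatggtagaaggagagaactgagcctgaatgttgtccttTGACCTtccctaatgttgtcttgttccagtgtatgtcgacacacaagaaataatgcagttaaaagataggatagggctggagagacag
Cdkn1b partner: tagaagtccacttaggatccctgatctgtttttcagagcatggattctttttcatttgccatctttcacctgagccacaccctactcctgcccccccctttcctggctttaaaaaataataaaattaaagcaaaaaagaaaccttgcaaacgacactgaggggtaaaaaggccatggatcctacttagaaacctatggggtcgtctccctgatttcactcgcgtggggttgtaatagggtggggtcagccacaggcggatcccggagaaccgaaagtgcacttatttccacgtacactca
The Cdkn1a window held 1 match to AGGTCA, which 19.3% of the 216081 anchor centres of this length hold, and none to AGATAA (18.3%) or CACGTG (4.02%). The Cdkn1b window held none of the 3 motifs.

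The Cdkn1a loop with the most double positive read pairs ran from the second start 15.3 kb upstream to chr17:29214413-29219090, at the noncoding gene Gm16197. The double positive libraries held 13, 10, 5, 8 and 7 read pairs, and the bulk libraries 0 to 2 with a median of 1. The groups overlapped after scaling. Its log2 difference was 1.77 (SE 0.51, adjusted p = 0.00144, edgeR), or 0.99 above the median of all loops. At 62.5 kb upstream, the promoter of Srsf3, a splicing factor gene, received 11 bulk read pairs and 10, 1, 4, 4 and 3 double positive read pairs, a difference of 0.58 that did not pass the test (adjusted p = 0.364). The strongest bulk loop ran 45.6 kb upstream to chr17:29183963-29189010 (12 read pairs from 8 libraries), an anchor that no double positive loop used. Partners at the promoters of Kctd20 and Stk38 received 12 and 8 double positive read pairs against 3 and 2 in bulk, and one at Pi16 received 8 against 0.

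The strongest loop of Cdkn1b in both groups was short, 8.5 kb downstream to chr6:134876243-134879725, beyond the end of the gene. It held 1 to 10 read pairs in each of the 12 bulk libraries (median 3.5, 47 in all) and 18, 12, 8, 12 and 13 in the double positive libraries. The groups overlapped, and the log2 difference was 0.06 with an SE of 0.37 (adjusted p = 0.903, edgeR). The loop 21.5 kb upstream to the promoter of Gpr19, an orphan receptor gene (chr6:134846545-134849377), held 19 bulk read pairs from 9 libraries and 15, 14, 8, 2 and 12 double positive read pairs. Its log2 difference was 1.01 (SE 0.43, adjusted p = 0.0343, edgeR), a call lost when any of 11 of the 17 libraries was left out. With no filter on low counts neither this loop (adjusted p = 0.177) nor that of Cdkn1a at 15.3 kb (adjusted p = 0.0912) passed the test. The other anchor at Gpr19, 31.6 kb upstream, had 12 read pairs in each group and a difference of -0.34 (adjusted p = 0.629). Apart from the strongest loop of each gene and group and the called ones, the partners named here were chosen after their values were seen.

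All 7 genes sent a larger share of their read pairs to other protein-coding promoters in double positive than in bulk libraries, from 17.4% to 30.0% for Ccnd2, from 50% to 64.5% for Ccnd3, from 42.3% to 59.6% for Cdkn1a and from 35.6% to 56.6% for Cdkn1b. That was so for 96.8% of the 10872 genes with at least 5 read pairs in each group. In double positive libraries the median of those genes was 85.7%, and all 7 members lay below it. In bulk the median was 46.2%, and Ccnd3 alone lay above it. These are values pooled over the libraries of a group and were not tested.

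The span of loops was tested as the share of a gene's read pairs over 100 kb in each library. Only Cdkn1b had at least 5 read pairs in every library, as 950 genes did. Its share was 24.7% ± 13.2 in bulk (SD, n = 12) and 24.7% ± 10.2 in double positive libraries (SD, n = 5), a difference of 0.0023 percentage points (exact two-sided permutation test over all 6188 splits, p = 1, adjusted p = 1), where 8.42% of genes were higher and 14.0% lower. With at least 3 read pairs a library, 5 of the 7 genes could be compared and 0 passed the test. Their differences ran from -8.23 percentage points for Ccnd1 (adjusted p = 0.757 by the exact permutation test) to 20.2 for Ccnd2 (71.9% in bulk and 92.1% in double positive libraries, adjusted p = 0.183), and Ccnd3 differed by 12.2 (adjusted p = 0.263). Cdkn1b had the shortest median span of the members in both groups, 29.9 kb in bulk and 21.5 kb in double positive libraries, whereas the median gene had 56.2% of its bulk read pairs over 100 kb.

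**Figure D5:**
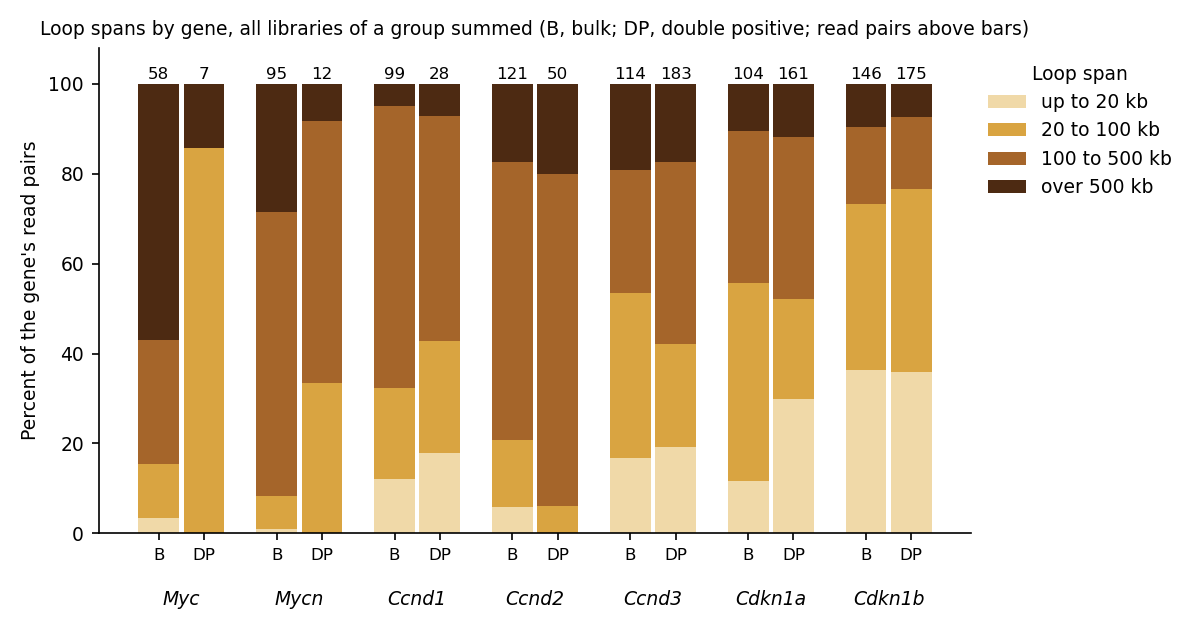
Percent of each gene's read pairs in 4 classes of loop span (stacked bars), with the 12 bulk (B) and 5 double positive (DP) libraries of a group summed and the number of read pairs above each bar. In the longest class lie 56.9% of Myc's bulk read pairs, and up to 20 kb lie 36.3% of those of Cdkn1b, while the double positive bars of Myc and Mycn rest on 7 and 12 read pairs.

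The partners and targets of these proteins were read from lists of the pathway. Their counts stand beside 20.6% higher and 42.8% lower and a median of -0.52 over all genes tested, and on shared anchors beside 25.7%, 10% and a median of 0.42. In the MYC/MAX network, 3 of 9 genes tested were higher and 3 lower, with a median of 0.10. Higher were Mxi1 (1.74, adjusted p = 4.83e-05), Mnt (0.86, adjusted p = 0.00435) and Mxd3 (1.11, adjusted p = 0.0260, but 0.48 with an adjusted p of 0.369 on shared anchors), each of which encodes a MAX partner that opposes MYC. Of the other MAX partners of that kind, Mxd4 differed by 0.61 without passing the test (adjusted p = 0.306), and Mxd1 and Mga had 11 bulk and 0 double positive read pairs each and were not tested. Lower were Mycl, the third MYC gene (-3.18, adjusted p = 9.11e-12, edgeR, 319 against 28 read pairs), and Mlxip (-1.51, adjusted p = 0.00119, but 0.23 on shared anchors). Zbtb17, which encodes a binding partner of MYC, was also lower, with 51 bulk read pairs and none in double positive libraries. No promoter anchor of Zbtb17 is in a double positive loop, where a missing anchor gives no count. Zbtb17 could therefore not be tested on shared anchors. Max itself, the common partner, differed by -0.30 (adjusted p = 0.546) and by 0.85 on shared anchors (adjusted p = 0.142). Of 8 classical MYC targets, 3 were higher (Ldha, 2.18; Fbl, 1.59; Cad, 1.05) and 3 lower (Npm1, -2.66; Eif4e, -0.85; and Odc1, with 39 and 0 read pairs), with a median of 0.16. On shared anchors 3 of 7 tested were higher and 1 lower (Eif4e, -0.65). Npm1 differed there by -0.60 (adjusted p = 0.426, edgeR). Odc1, with no promoter anchor in a double positive loop, could not be tested there.

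Among G1 and S phase kinases and cyclins, Cdk2 was higher (1.62) and Cdk6 lower (-2.88), while Cdk4, the main partner of D cyclins, had 512 and 432 read pairs and a difference of -0.04 (adjusted p = 0.858), which on shared anchors was -0.66 (adjusted p = 0.00679). Ccne2 had 21 bulk and no double positive read pairs and was also lower, so that 1 of 6 was higher and 2 lower. Neither Cdk6 nor Ccne2 could be tested on shared anchors, and Ccne2, like Zbtb17, has no promoter anchor in a double positive loop. Of 12 retinoblastoma-family and E2F genes tested, none was higher and 8 were lower, with a median of -1.55. With DESeq2 the counts were the same, and at an unadjusted p under 0.05 1 gene (E2f4, 0.90) was higher and 8 were lower (edgeR). The lower ones include Rbl1 (-1.51), E2f1 (-1.59) and Rbl2, with 29 bulk and no double positive read pairs. Rbl2 likewise has no promoter anchor in a double positive loop and could not be tested on shared anchors. On shared anchors 8 of these genes could be tested, 3 were lower (Rbl1, E2f1 and E2f2) and none higher, and their median was 0.014. E2f1 and Rbl1 lie in a part of chromosome 2 where bulk read pairs per anchor were 3.47 and 3.37 times the median of autosomal windows of 10 Mb. Around the 7 genes this ratio was 0.743 to 2.23 in bulk and 0.340 to 1.42 in double positive libraries. The part of these neighbourhoods in the differences was not tested.

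Of 5 other CDK inhibitors tested, 2 were higher and 1 lower, with a median of 1.07. Cdkn2a (1.32) and Cdkn2b (1.95), which encode inhibitors of CDK4 and CDK6 and lie side by side, were higher. Cdkn1c (p57), the closest relative of p21 and p27, was lower (-2.39, with 145 bulk and 22 double positive read pairs). Cdkn2c (-0.43, adjusted p = 0.556, edgeR) and Cdkn2d (1.07, adjusted p = 0.0589) did not pass the test. On shared anchors 3 of 4 tested were higher, among them Cdkn2d (1.59, adjusted p = 0.00610), and 1 was lower. Among regulators of MYC, p21 and p27, Cks1b, a cofactor in p27 degradation, was higher (2.09). Fbxw7, which targets MYC for degradation, and Mdm2, which does so for p53, were lower (-2.12 and -1.17), each of opposite sign on shared anchors (0.52 and 0.65, not past the test). Trp53, the gene of p53, differed by 0.27 (adjusted p = 0.381) and by -0.51 on shared anchors (adjusted p = 0.0776).

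The genes whose CPM over the 17 libraries came closest to each member were Pde8b and Rcn1 for Myc (mean absolute difference 0.57 and 0.58 of log2(CPM + 1)), Unc79 and Uncx for Mycn (0.49 and 0.52), Zbtb16 and Tbcd for Ccnd1 (0.33 and 0.38), and Dusp12 and Stk38 for Ccnd2 (0.36 and 0.37). For Ccnd3 they were Gdf9 and Uqcrq, which share their read pairs (0.34 for both), for Cdkn1a Shf and Ifi35 (0.29 and 0.32), and for Cdkn1b Slc24a6 and Clip2 (0.30 and 0.33). Uncx, a homeobox gene, had 77.5 ± 37.1 CPM in bulk (SD, n = 12) and 17.1 ± 5.70 CPM in double positive libraries (SD, n = 5).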

How the data were processed

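H3K27ac HiChIP was analysed in 12 bulk and 5 double positive libraries. Per the labels and methods, the authors digested chromatin with MboI, aligned reads to mm9 with HiC-Pro and called loops with hichipper, leaving out replicates with few strong loops. The deposited values are counts of read pairs per pair of anchors in each library, not normalized, and list only loops with a read pair. Which libraries gave each set of anchors is not given in the sources used here, and bulk and double positive libraries use different sets, so a missing anchor gives no count.

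Overlapping anchors were joined into 216081, and 700 read pairs inside a joined anchor were dropped. Anchor edges lay at GATC in the mm9 reference in 432159 of 432162 cases. Each gene's value is the sum of read pairs over all loops that end no more than 5 kb from one of its GENCODE start sites, for 22367 protein-coding genes. Genes and loops with at least 20 read pairs, in at least 5 libraries, were tested with edgeR 4.0.16 (TMM, quasi-likelihood) in R 4.3.3, with DESeq2 1.42.0 as an alternative, and adjusted by Benjamini-Hochberg over all tested. On simulated data with the 14115 genes' real means, 24% of 2-fold and 75% of 4-fold changes were recovered, with 3.88% false calls. For 5369 simulated loops these were 13%, 53% and 9.59%. The simulations changed 200 features, as many up as down, with a common dispersion and no anchor missing from a group. They therefore do not give the rate of false calls in the real data, where 63.4% of genes were called. Shares over 100 kb were compared by exact permutation over all splits (Python 3.11.15, numpy 2.4.6, pandas 2.3.3, scipy 1.17.1). Intervals of shares are exact Clopper-Pearson at 95% and, like chi-square p-values from read pairs, cover counting error only. The 95% intervals of log2 differences come from the edgeR fit, which includes the spread between libraries.

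The genes, loops and lists were chosen with earlier results of these data known. Named were all 7 genes, for each the loop with the most read pairs in each group (the shorter on a tie), every called loop, the 2 most alike genes without a shared anchor, and from each list up to 3 called genes a direction. No 2 libraries of a group agreed within sampling noise (largest chi-square p = 7.89e-41 over 66 bulk pairs and 7.24e-08 over 10 double positive pairs).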

Additional observations from a re-analysis of the deposited data

How the results depend on the processing

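The numbers of the 7 genes higher and lower (3 and 4) depended on scaling and anchors. With library size alone 4 were higher and 0 lower, thinned to the smallest library 2 were higher and 3 lower, on shared anchors 2 were lower, and with spans of at least 20 kb 1 was higher. Leaving out single libraries gave 2 to 3 higher and 4 lower. The difference of Ccnd1 turned to 0.21 with library size alone, that of Ccnd2 to 0.73 with library size alone and 0.45 on shared anchors, and that of Cdkn1b to -0.17 on shared anchors. Ccnd3 kept its call in all 10 alternatives and all 17 left-out libraries. The 2 member loops higher became 1 with DESeq2 size factors, with at least 50 read pairs, when thinned to the smallest library and with spans of at least 20 kb, and 5 with library size alone. With no filter 4 loops were higher, but these are other loops, since none of the 5 loops tested otherwise passed (adjusted p = 0.0912 to 0.368). Leaving out single libraries gave 1 to 2. Of loops that did not pass the test, the Cdkn1a loop to Srsf3 turned to -0.094 with the replicate block and -0.11 in the same 10 libraries without it. The Cdkn1b loop at 31.6 kb turned to 1.87 with library size alone, 0.89 with no filter and 0.10 with spans of at least 20 kb, and that at 8.5 kb to -0.42 with at least 50 read pairs, -0.077 with the block and -0.16 without it, and lay between -0.19 and 0.080 when single libraries were left out. The difference of Cdkn1b in the share over 100 kb was -5.92 percentage points over 50 kb and -1.36 over 250 kb, and -3.65 to 2.54 without single libraries. It could not be computed on shared anchors or with at least 10 read pairs. The cause of these changes was not tested.

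Replicate numbers are shared between the groups, and the labels do not say whether they mark pairs. Deviations of same-numbered libraries correlated at -0.014 to 0.010. No correlations of differently numbered libraries stand beside these values, and counts per gene are low, so they do not decide whether the numbers pair libraries. With the replicate block over numbers 1 to 5, 2 genes were higher and 4 lower, and 0 loops were higher, against 2 genes, 4 genes and 1 loop in the same 10 libraries without the block, a setting chosen after seeing the data. Over all genes tested, 2906 were higher and 6040 lower with TMM, 7800 and 3702 with library size alone and 2534 and 988 on shared anchors. With 58 bulk and 7 double positive read pairs for Myc, depth limits the MYC genes most.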
